A study of Mus musculus with 12 samples.

Results

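The genes described here encode the core machinery of macroautophagy, the process in which a double membrane closes around cytoplasm and delivers it to the lysosome. They were chosen by name, as 41 genes whose symbols match a set list, out of 32285 genes in the count table. All 41 had exactly 1 entry in the table and all 41 passed the filter on low counts, which left 15229 genes for testing. They were measured by RNA sequencing of nucleus pulposus, the gelatinous centre of the intervertebral disc, dissected from mouse tails. The Opa1cKO group held 6 mice in which Opa1, the gene for the dynamin-like GTPase that fuses mitochondrial inner membranes and shapes cristae, was deleted at 3 months of age with the AcanCre driver, which is active in cells of disc and cartilage. The WT group held 6 mice of the same C57BL/6-129/SvEv background. Mice of both genotypes received tamoxifen at 100 mg/kg on 3 days and were sampled at 12 months of age, 9 months after the deletion. The labels do not say whether WT mice carried the Cre driver or a floxed Opa1 allele. Each library came from 1 mouse.

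Autophagy starts when the ULK1 kinase complex is released from inhibition by mTORC1 and activates the class III phosphatidylinositol 3-kinase complex, which marks the forming membrane with PI3P. WIPI proteins read this lipid, ATG2 and ATG9A supply membrane lipid, and an ubiquitin-like conjugation system attaches ATG8 proteins (the LC3 and GABARAP families) to the membrane. Cargo receptors such as p62 bind ATG8 proteins and ubiquitylated cargo, and SNARE proteins and tethers join the closed autophagosome to the lysosome. Nucleus pulposus cells live in an avascular and hypoxic tissue, in which autophagy is known as a route of quality control for proteins and organelles. Much of the pathway is regulated on proteins rather than on transcripts, and the libraries measured transcripts only.

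Opa1 itself averaged 40.6 ± 6.30 CPM in Opa1cKO and 102 ± 17.3 CPM in WT (SD, n = 6 each), a log2 fold change of -1.22 with no overlap between the genotypes (adjusted p by edgeR = 3.05e-05). Library totals spanned 37268242 to 56618266 counts in Opa1cKO and 45657321 to 53261644 counts in WT, so that 1 CPM, the unit of counts scaled to library size, stood for 37.2 to 56.9 reads. Labelled sex, which the main fit used, was 2 female and 4 male for Opa1cKO, and 4 female and 2 male for WT. Sex-linked transcripts gave 3 female and 3 male for Opa1cKO, and 5 female and 1 male for WT. They went against the label in 4 libraries, namely Opa1cKO 4 and WT 4, 5 and 6. Values without these 4 libraries are given beside each autophagy gene that was called or came near it, and for the other named genes at the end of their paragraphs. For Opa1 the value without them was -1.16 (adjusted p = 0.00711), or -1.39 (adjusted p = 6.43e-04) with no sex term. Summed nucleus pulposus markers lay between 44826 and 56057 CPM in Opa1cKO and between 45776 and 59433 CPM in WT. Much of this sum was Car3, with means of 30376 CPM in Opa1cKO and 28954 CPM in WT. By edgeR 0 of the 11 markers tested were called, and 4 had an unadjusted p below 0.05. Of these, Acan (log2 fold change -0.53), Foxa2 (-1.08) and Cd24a (-0.34) were lower in Opa1cKO, and Col2a1 (1.14) was higher. Opa1cKO 6 had the highest Acan and Col2a1 values of its genotype. Of 10 macrophage markers, Cd68 was higher (38.6 CPM in Opa1cKO, 15.3 CPM in WT) while Csf1r (66.2 and 116 CPM) and Cd163 (0.319 and 5.65 CPM) were lower, and the defining markers Ptprc, Adgre1, C1qa, C1qb and C1qc were near 0 in both genotypes. The summed macrophage list was 97.2 to 118 CPM in Opa1cKO and 105 to 197 CPM in WT. Without the 4 libraries the log2 fold change of Cd68 was 1.15 (adjusted p = 0.0257), or 1.30 (adjusted p = 0.00341) with no sex term, that of Csf1r -0.70 (adjusted p = 0.128), or -0.76 (adjusted p = 0.0288) with no sex term, and that of Cd163 -4.48 (adjusted p = 0.00711), or -4.22 (adjusted p = 2.20e-04) with no sex term. The part of these markers in the results below was not tested. In bulk tissue, fewer cells of a type and less RNA per cell cannot be told apart.

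For most of the autophagy machinery any difference between the genotypes was small. Of the 41 genes, 2 fell in Opa1cKO and 0 rose by edgeR's quasi-likelihood test with Benjamini-Hochberg adjustment over all tested genes. The genes that fell were Atg13, which encodes a subunit of the ULK1 initiation complex, and Map1lc3b, which encodes LC3B, the ATG8 protein most used as an autophagosome marker. The 2 calls make up 4.88% of the list. Over all tested genes 10.2% were called, with 5.13% lower and 5.10% higher, so the share of calls among the autophagy genes was near the background for lower calls and at 0 for higher ones. At an unadjusted p below 0.05 there were 5 lower and 3 higher autophagy genes, or 12.2% and 7.32% of the list, beside 11.7% and 13.6% of all tested genes. DESeq2 called 1 gene higher (Optn) and 5 lower, and limma-voom called 0 higher and 2 lower. Over all tested genes DESeq2 called 1189 higher and 1130 lower (15.2% in all), and limma-voom 679 higher and 816 lower (9.82%).

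Changes in the list were small. The log2 fold changes ran from -0.52 for Ulk1 to 0.25 for Map1lc3a, with a median of -0.047, beside a median of 0.013 over all tested genes. The median size of the change, regardless of sign, was 0.11 on the log2 scale in the list and 0.18 over all tested genes. All 41 genes lay within 1.5-fold of WT, beside 84.7% of all tested genes. The fold change was below 0 for 27 genes and above 0 for 14, a share of 65.9% below 0 in the list and 48.1% over all tested genes. These genes were also measured with small error. The standard error of the log2 fold change was below the median of all tested genes for 35 of the 41. Each gene had between 257 and 38417 counts in every library. The median standard error was 0.0959 in the list and 0.142 over all tested genes, so the sizes of change above are compared at unlike error. How much of the smaller changes goes with the smaller error was not tested. For 34 of the 39 genes that were not called, the 95% interval of the fold change lay inside 1.5-fold in both directions. The 5 exceptions were Ulk1, Atg101, Atg2a, Calcoco1 and Tfeb, so for these a difference of 1.5-fold was not excluded at this number of mice.

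**Figure D1:**
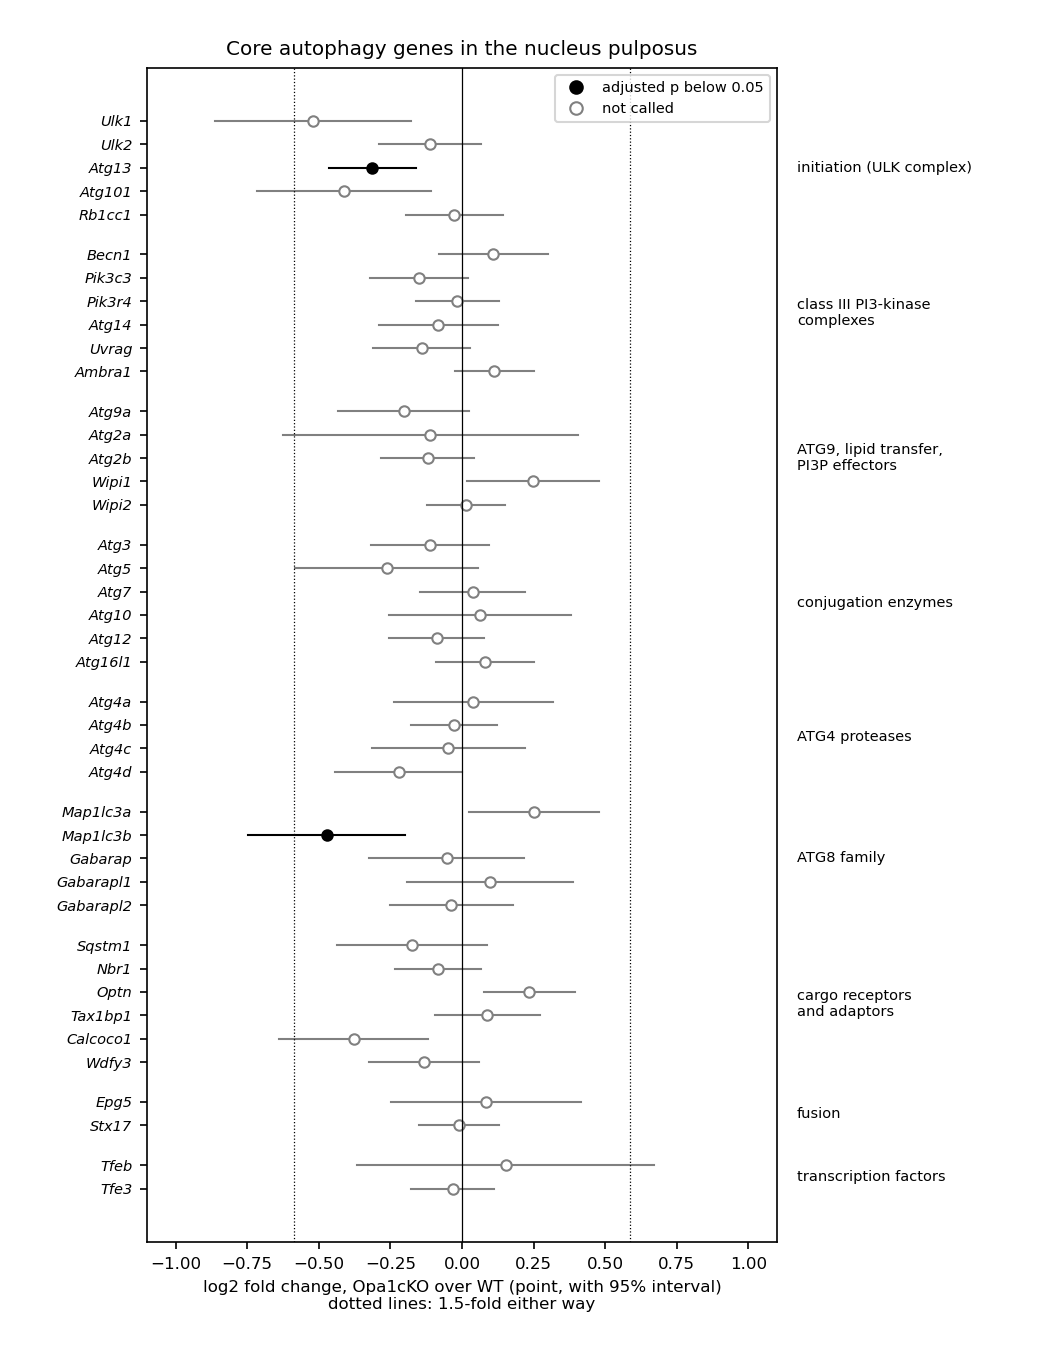
Log2 fold change of each of the 41 core autophagy genes, Opa1cKO over WT, with its 95% interval (6 libraries each), grouped by role from initiation at the top to transcription factors at the bottom. Filled points mark the 2 genes called, Atg13 and Map1lc3b, and the dotted lines mark 1.5-fold in either direction.

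In absolute terms the list is led by cargo receptor and ATG8 transcripts. Levels between genes are compared in TPM, the authors' transcript values scaled by gene length and library size. Sqstm1, which encodes the receptor p62, was highest with 770.1 TPM in Opa1cKO and 837 TPM in WT, followed in both genotypes by Gabarap, Map1lc3a and Gabarapl1. Tfeb, which encodes a transcription factor of lysosomal and autophagy genes, was lowest in WT with 11.9 TPM, against 14.8 TPM in Opa1cKO. The lowest level in Opa1cKO was that of Atg4d, with 14.1 TPM in Opa1cKO and 15.8 TPM in WT. The sum over the 41 genes was 3760 ± 126 TPM in Opa1cKO and 3893 ± 119 TPM in WT (SD, n = 6 each).

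**Figure D2:**
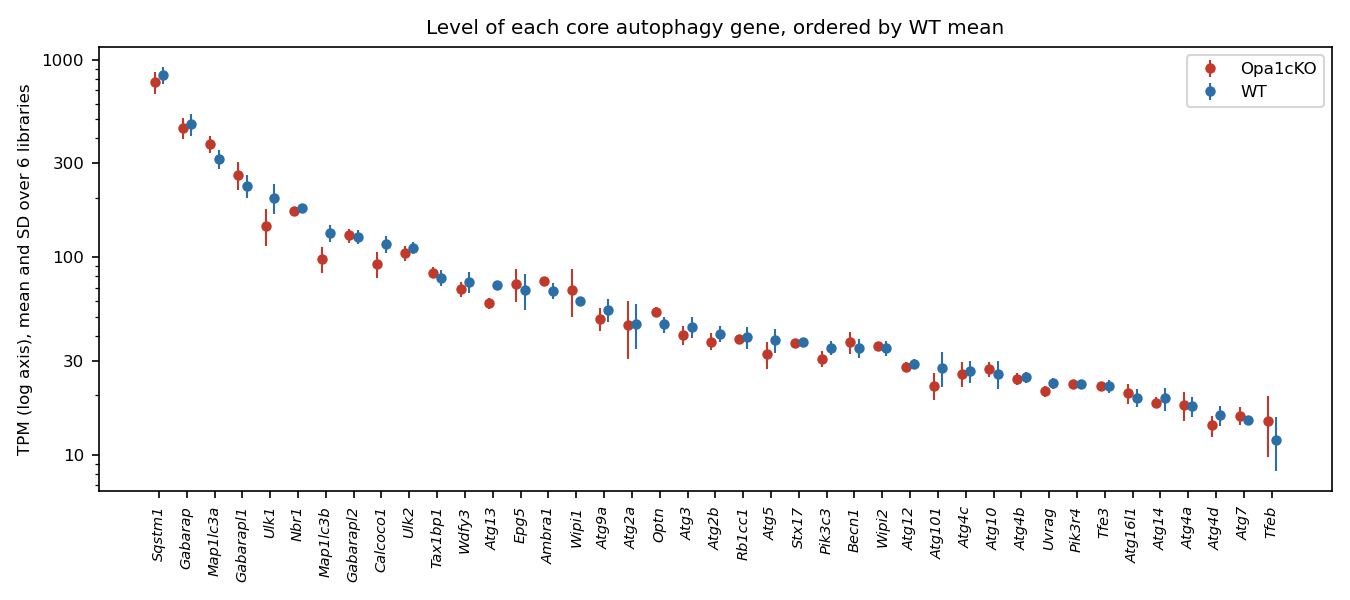
TPM of each core autophagy gene on a log axis, as mean and SD over 6 Opa1cKO libraries (red) and 6 WT libraries (blue), ordered by the WT mean. Sqstm1, Gabarap, Map1lc3a and Gabarapl1 lead in both genotypes, and the points of the 2 genotypes lie close together along the whole order.

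The initiation complex held one of the 2 calls and the lowest median of the 9 roles. All 5 of its genes had fold changes below 0, with a median of -0.31, and their summed level was 368 ± 38.9 TPM in Opa1cKO and 451 ± 42.8 TPM in WT. Ulk1 and Ulk2 encode the kinases, Atg13 and Atg101 encode their HORMA-domain partners, and Rb1cc1 encodes the large scaffold FIP200. Of these 5, Atg13 fell and the other 4 did not pass the test. Within the summed level, Ulk1 alone was 144.2 ± 30.4 TPM in Opa1cKO and 200.3 ± 35.6 TPM in WT. Rb1cc1, at -0.027, changed sign in 5 of 32 alternative fits.

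Atg13 (ENSMUSG00000027244) lies on the minus strand of chromosome 2 at chr2:91674618-91710576 (mm10). It had 56.8, 55.2, 58.7, 50.7, 61.1 and 50.5 CPM in Opa1cKO libraries 1 to 6, and 69.8, 69.4, 69.5, 69.3, 66.5 and 70.7 CPM in WT libraries 1 to 6. Every Opa1cKO library was below every WT library. The means were 55.5 ± 4.27 CPM in Opa1cKO and 69.2 ± 1.39 CPM in WT (SD, n = 6 each), a log2 fold change of -0.31 (SE 0.0702; adjusted p by edgeR = 0.0125). Atg13 was the only one of the 41 genes whose genotypes did not overlap, which is 2.44% of the list, beside 3.64% of all tested genes that were lower without overlap. None was higher without overlap, beside 2.77% of all tested genes. The 6 WT libraries lay close together, with a coefficient of variation of 2.02%, the smallest of the 41 genes, where the median was 9.79%. No exonic base of Atg13 is shared with another annotated gene.

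The Atg13 difference kept its size when libraries were left out, while its call did not always hold. Over 32 alternatives its log2 fold change lay between -0.36 and -0.26. With sex taken from the sex-linked reads the log2 fold change was -0.33 (adjusted p = 0.00826) in edgeR. Without the 4 libraries of contradicted sex the Atg13 log2 fold change was -0.32 (adjusted p = 0.190), or -0.30 (adjusted p = 0.0911) with no sex term. The call was also lost without Opa1cKO 6, at -0.26 (adjusted p = 0.0571), and without WT 6, at -0.30 (adjusted p = 0.0509).

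The kinase gene Ulk1 had the largest fold change of the list and also one of the widest spreads. Ulk1 ranged between 142 and 258 CPM in Opa1cKO libraries (median 201) and between 223 and 350.4 CPM in WT libraries (median 286). The 2 lowest libraries were Opa1cKO 3 and Opa1cKO 6. The genotypes overlapped because Opa1cKO 4 and Opa1cKO 5 were above WT 4, and Opa1cKO 4 was also above WT 1 and WT 2. The log2 fold change was -0.52 (SE 0.159; adjusted p by edgeR = 0.0535), just outside the threshold, with a 95% interval of -0.86 to -0.18. Leaving out 1 library at a time gave -0.65 to -0.45, and adjusted p was under the threshold in 4 of these 12 fits (without WT 4, Opa1cKO 3, Opa1cKO 4 or Opa1cKO 5) and as high as 0.162 without Opa1cKO 6. With sex from the reads it was -0.38 (adjusted p = 0.0985), and without the 4 libraries of contradicted sex -0.45 (adjusted p = 0.313), or -0.57 (adjusted p = 0.0991) with no sex term. Atg101 was at -0.41 (adjusted p = 0.0802) from the lowest counts of the complex, with 7.75 ± 1.20 CPM in Opa1cKO and 9.68 ± 2.00 CPM in WT. Leaving out 1 library at a time gave -0.53 to -0.32, with a call in 2 of 12 fits (without WT 2 or Opa1cKO 5) and an adjusted p of up to 0.260 without WT 6. With the 4 libraries of contradicted sex left out, Atg101 was -0.27 (adjusted p = 0.567), or -0.12 (adjusted p = 0.763) with no sex term. The paralogous kinase gene Ulk2 was at -0.11 and the scaffold gene Rb1cc1 at -0.027, with adjusted p of 0.433 and 0.872. Their 95% intervals, -0.29 to 0.067 for Ulk2 and -0.20 to 0.14 for Rb1cc1, bound either change to well under 1.5-fold.

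**Figure D3:**
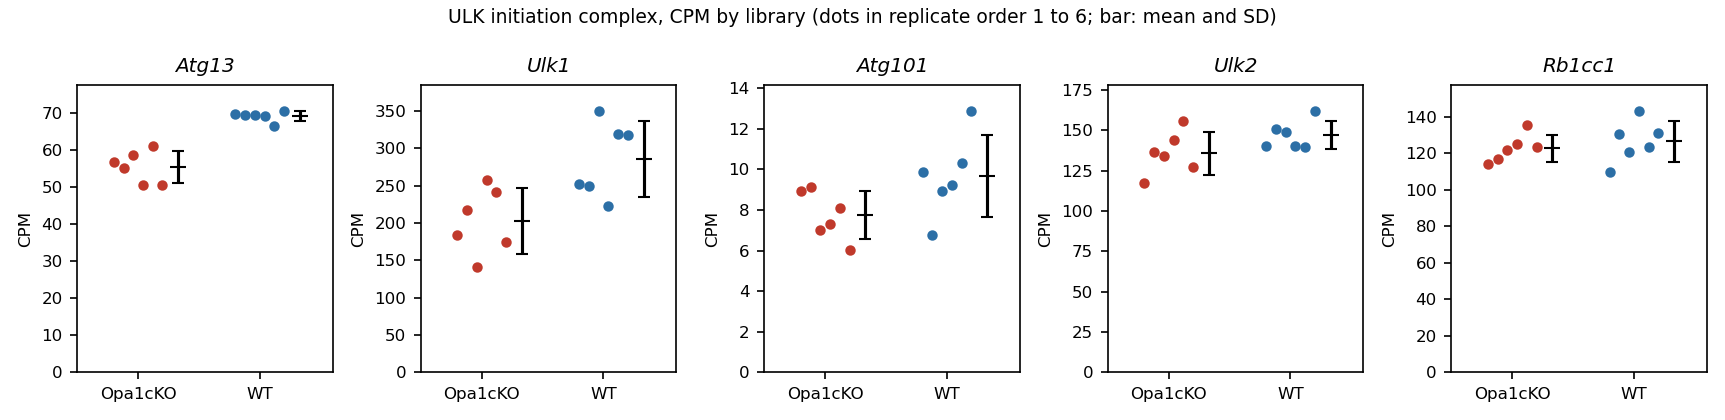
CPM of the 5 ULK complex genes in each Opa1cKO library (red, left) and each WT library (blue, right), with dots in replicate order and bars for mean and SD. Only Atg13 shows no overlap, with Opa1cKO libraries between 50.5 and 61.1 CPM and WT libraries between 66.5 and 70.7 CPM.

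The ATG8 family held the other call, and its 5 genes had fold changes of both signs. Map1lc3b fell, Map1lc3a had a fold change above 0 that did not pass, and the 3 GABARAP genes were close to 0. The family's summed level was 1318 ± 65.2 TPM in Opa1cKO and 1277 ± 118 TPM in WT, so its total differed by less than the spread between mice.

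Map1lc3b lies on the plus strand of chromosome 8 at chr8:121590361-121598760 (mm10). It had 148, 173, 148, 171, 197 and 122 CPM in Opa1cKO libraries 1 to 6, and 269, 212, 203, 181, 217 and 238 CPM in WT libraries 1 to 6. The genotypes overlapped only through Opa1cKO 5, which was above WT 4. The means were 159.8 ± 26.0 CPM in Opa1cKO and 219.8 ± 30.2 CPM in WT (SD, n = 6 each), a log2 fold change of -0.47 (SE 0.127; adjusted p by edgeR = 0.0302). As a share of the summed TPM of the 5 ATG8 genes, Map1lc3b made up 7.44 ± 1.22% in Opa1cKO and 10.4 ± 0.869% in WT. These shares did not overlap, but they also depend on the other ATG8 genes, and no such share was taken for genes outside the family. The TPM of Map1lc3b itself overlapped, with 117.8 in Opa1cKO 5 and 116.5 in WT 4. With sex taken from the reads the gene was just outside the threshold, at -0.40 (adjusted p = 0.0511) in edgeR. Without the 4 libraries of contradicted sex the Map1lc3b log2 fold change was -0.51 (adjusted p = 0.216), or -0.54 (adjusted p = 0.0828) with no sex term. It was not called without Opa1cKO 6, at -0.36 (adjusted p = 0.103), nor without Opa1cKO 1, WT 5 or WT 6, where adjusted p was 0.0609, 0.0613 and 0.0994. The mouse genome holds 4 processed pseudogenes of 96.1 to 99.6% identity to Map1lc3b over at least 250 bases, none with an entry in the count table. The labels do not say how reads shared with them were counted.

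Of the other ATG8 genes, Map1lc3a, which encodes LC3A, ranged between 84.1 and 104 CPM in Opa1cKO libraries (median 99.2) and between 67.4 and 102 CPM in WT libraries (median 80.7). Its log2 fold change was 0.25 (adjusted p by edgeR = 0.153), and 5 of its 6 WT libraries were below the Opa1cKO median while WT 1 was as high as the upper Opa1cKO libraries. Gabarap ranged between 167 and 235 CPM in Opa1cKO libraries (median 169.8) and between 162 and 246 CPM in WT libraries (median 185), with 5 Opa1cKO libraries close together and Opa1cKO 3 apart above them. Gabarapl1 ranged between 77.4 and 138 CPM in Opa1cKO libraries (median 118) and between 77.9 and 121 CPM in WT libraries (median 105), with Opa1cKO 6 as low as the lowest WT library. Gabarapl2 ranged between 54.1 and 72.8 CPM in Opa1cKO libraries (median 64.5) and between 53.0 and 76.5 CPM in WT libraries (median 66.0). The GABARAP genes had log2 fold changes of -0.053, 0.10 and -0.037 for Gabarap, Gabarapl1 and Gabarapl2, each within 1.5-fold over its whole 95% interval. Gabarapl1 shares 28.3% of its exonic bases with an opposite-strand transcript, and Gabarapl2 has 3 processed pseudogenes. The same limit on counting shared reads holds for both.

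**Figure D4:**
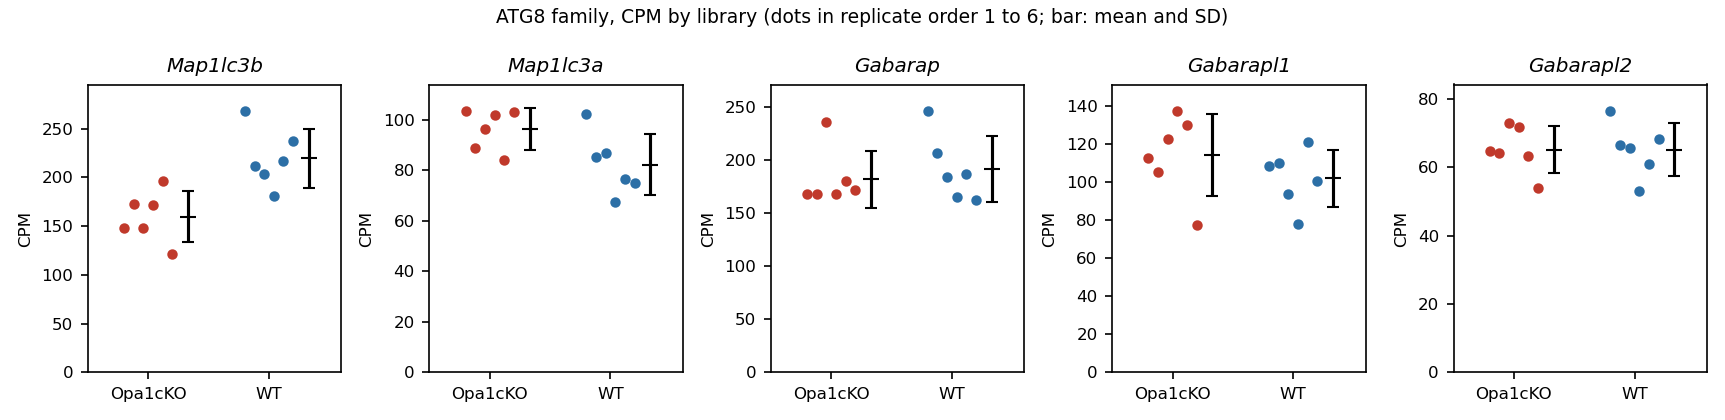
CPM of the 5 ATG8 family genes in each Opa1cKO library (red, left) and each WT library (blue, right), with dots in replicate order and bars for mean and SD. Map1lc3b is lower in Opa1cKO (121.7 to 196.8 CPM against 180.8 to 268.5 CPM), while the other 4 genes overlap broadly.

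The sequences upstream of the genes called are shown because transcription factors of the autophagy pathway act there. They are the 250 bases before the RefSeq start of Atg13 and Map1lc3b, and of Atg3 for comparison, on GRCm38.p6. The RefSeq start is not the GENCODE start that gives the gene positions above: it lies 77 bases inside the GENCODE gene for Map1lc3b and 44 bases inside it for Atg3, and 16 bases before it for Atg13. The last bases of the Map1lc3b and Atg3 windows are therefore transcribed in the GENCODE models. Capitals mark CACGTG, the E-box bound by TFEB and TFE3.
Atg13, chr2:91710593-91710842, minus strand: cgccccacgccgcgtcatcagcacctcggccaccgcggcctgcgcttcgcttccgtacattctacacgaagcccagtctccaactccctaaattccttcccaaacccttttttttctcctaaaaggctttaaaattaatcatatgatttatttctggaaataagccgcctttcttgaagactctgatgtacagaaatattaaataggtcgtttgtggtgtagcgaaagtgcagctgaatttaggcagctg
Map1lc3b, chr8:121590188-121590437, plus strand: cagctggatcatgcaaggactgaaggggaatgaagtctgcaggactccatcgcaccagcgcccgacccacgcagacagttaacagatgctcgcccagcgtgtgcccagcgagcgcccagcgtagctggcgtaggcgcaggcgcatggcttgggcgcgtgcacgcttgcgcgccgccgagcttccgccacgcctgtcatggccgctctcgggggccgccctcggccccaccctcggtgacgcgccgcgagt
Atg3, chr16:45158579-45158828, plus strand: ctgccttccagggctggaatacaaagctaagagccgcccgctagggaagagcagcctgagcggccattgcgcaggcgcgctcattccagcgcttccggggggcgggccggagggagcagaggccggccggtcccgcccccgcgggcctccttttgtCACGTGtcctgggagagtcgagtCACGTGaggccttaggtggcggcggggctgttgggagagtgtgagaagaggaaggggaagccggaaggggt
The Atg3 window holds 2 copies of the E-box, and neither the Atg13 nor the Map1lc3b window holds one. Their base composition differs, with 46.4% G and C in the Atg13 window and 69.6% in the Map1lc3b window. Promoters were found for 33 of the 41 genes, as 40 windows. CACGTG was in 7.5% of these windows, those of Atg3, Atg5 and Atg7, beside 6.02% of 32851 windows over all genes. ACGTG, a form of the core of the hypoxia response element, was searched on both strands, and each CACGTG also contains it. It was in 32.5% of the autophagy windows and 16.6% of all windows. The other form of this core, GCGTG, was not counted. The autophagy windows were also richer in G and C, with a median of 58.2% against 52.4%. GTAAACA, a forkhead core searched on both strands, was in 0 of the 40 windows and in 3.17% of all windows. The windows of both genes that fell lack all 3 motifs as searched, which says only that these letters are not in these windows. The uncounted form GCGTG is in the printed Map1lc3b window and, read from the other strand as CACGC, in that of Atg13.

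Of the 6 genes of the class III PI3-kinase complexes 0 were called in edgeR and 0 had an unadjusted p below 0.05, and this role had a narrow range of fold changes, from -0.15 to 0.11. Pik3c3, which encodes the lipid kinase VPS34, was nearest to a change. It ranged between 25.3 and 33.3 CPM in Opa1cKO libraries (median 29.3) and between 31.1 and 36.0 CPM in WT libraries (median 35.5), with a log2 fold change of -0.15 (adjusted p by edgeR = 0.259). WT 1 to 4 lay above every Opa1cKO library, while WT 5 and WT 6 lay within the Opa1cKO range. Its regulatory subunit gene Pik3r4 was at -0.017, Becn1 for Beclin 1 at 0.11, and Atg14, whose product directs the complex to autophagy, at -0.082. Uvrag, for the subunit that replaces ATG14 in the endosomal complex, was at -0.14, and Ambra1, for a Beclin 1 partner, at 0.11. All 6 intervals lay within 1.5-fold. Becn1 shares 43.9% of its exonic bases with the opposite-strand gene Cntd1, so the Becn1 level is less certain if reads were counted without strand. Cntd1 averaged 3.75 CPM in Opa1cKO and 2.20 CPM in WT, beside 56.9 and 54.0 CPM for Becn1.

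ATG9A, the ATG2 lipid transfer proteins and the PI3P readers gave 0 calls of 5 in edgeR, and 1 of them, Wipi1, had an unadjusted p below 0.05. Wipi1 ranged between 52.8 and 96.2 CPM in Opa1cKO libraries (median 60.1) and between 54.0 and 63.7 CPM in WT libraries (median 58.2). Its log2 fold change of 0.25 (adjusted p by edgeR = 0.166) stood beside a high value in Opa1cKO 6 alone, and was 0.088 (adjusted p = 0.644) without it. Its relative Wipi2, which recruits ATG16L1, was one of the most stable genes at 0.015 with a 95% interval of -0.12 to 0.15. Atg2a had the widest spread of the role, with 38.8 to 99.0 CPM in Opa1cKO and 51.6 to 100.1 CPM in WT, and its log2 fold change was -0.11. Atg2b and Atg9a were at -0.12 and -0.20, with adjusted p of 0.346 and 0.256. Atg9a shares 31.8% of its exonic bases with the same-strand transcript Gm29253, which has no entry in the count table. How reads shared with it were counted is not given.

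The ubiquitin-like conjugation genes and the ATG4 proteases gave 0 calls of 6 and 0 of 4 in edgeR, with 0 genes at an unadjusted p below 0.05. Atg5, which encodes the acceptor for ATG12, ranged between 13.9 and 21.7 CPM in Opa1cKO libraries (median 15.6) and between 17.0 and 25.8 CPM in WT libraries (median 18.3), a log2 fold change of -0.26 (adjusted p by edgeR = 0.293). The ranges overlapped because Opa1cKO 1 and Opa1cKO 3 lay within the WT range, while Opa1cKO 2, 4, 5 and 6 lay below every WT library. All WT libraries but WT 1 lay below Opa1cKO 3. Atg12 was at -0.088, the E1-like Atg7 at 0.037, the E2-like Atg3 and Atg10 at -0.11 and 0.063, and Atg16l1, whose product places the conjugate on the membrane, at 0.079. Among the genes for ATG4 proteases, which trim ATG8 proteins and release them from lipid, Atg4d ranged between 18.7 and 25.6 CPM in Opa1cKO libraries (median 22.4) and between 21.8 and 29.8 CPM in WT libraries (median 25.1). Its log2 fold change was -0.22 (adjusted p = 0.200), and 19.3% of its exonic bases are shared with the opposite-strand gene Kri1. Atg4a, Atg4b and Atg4c lay closer to 0, at 0.039, -0.028 and -0.047. Atg4a has a copy, Atg4a-ps, of 99.3% identity over 2115 bases, counted at under 0.1 CPM in the mean of either genotype.

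Cargo receptors gave 0 calls of 6 in edgeR and pointed both ways, with Optn and Calcoco1 at an unadjusted p below 0.05. DESeq2 called both of these. Optn, which encodes the ubiquitin-binding receptor optineurin, ranged between 39.1 and 46.0 CPM in Opa1cKO libraries (median 44.4) and between 33.9 and 40.6 CPM in WT libraries (median 38.4). Opa1cKO 3 to 6 lay above every WT library, while Opa1cKO 1 and Opa1cKO 2 lay below WT 4. The log2 fold change was 0.23 (SE 0.0741; adjusted p by edgeR = 0.0599). Calcoco1, a receptor gene for autophagy of endoplasmic reticulum, averaged 115 ± 18.7 CPM in Opa1cKO and 148 ± 18.3 CPM in WT, with a log2 fold change of -0.38 (adjusted p = 0.0629). Leaving out 1 library at a time gave -0.51 to -0.29, with a call in 1 of 12 fits, the one without Opa1cKO 5 (adjusted p = 0.0151), and -0.29 (adjusted p = 0.214) without Opa1cKO 6. Without the 4 libraries of contradicted sex Calcoco1 was -0.39 (adjusted p = 0.307), or -0.43 (adjusted p = 0.132) with no sex term, and Optn was 0.25 (adjusted p = 0.287), or 0.17 (adjusted p = 0.358) with no sex term. Sqstm1 for p62 was at -0.18 with 562 ± 84.2 CPM in Opa1cKO and 619 ± 76.9 CPM in WT, and Nbr1, Tax1bp1 and the aggregate adaptor gene Wdfy3 were at -0.083, 0.089 and -0.13. Sqstm1 shares 17.3% of its exonic bases with the opposite-strand gene Mrnip. The summed level of the 6 receptors was 1240 ± 108 TPM in Opa1cKO and 1331 ± 81.1 TPM in WT.

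The fusion genes and the transcription factor genes gave 0 calls of 2 each in edgeR, with 0 genes at an unadjusted p below 0.05. Epg5, a tether between autophagosome and lysosome, ranged between 124 and 200.2 CPM in Opa1cKO libraries (median 160.1) and between 115 and 191 CPM in WT libraries (median 156), a log2 fold change of 0.084 (adjusted p by edgeR = 0.782) between wide and overlapping ranges. Stx17, the autophagosomal SNARE gene, was nearest to 0 of all 41 genes at -0.011, with a 95% interval of -0.15 to 0.13. Tfeb ranged between 9.67 and 25.5 CPM in Opa1cKO libraries (median 17.3) and between 8.85 and 20.5 CPM in WT libraries (median 14.7). Its low libraries were Opa1cKO 3, WT 2 and WT 4, and it varied most of all 41 genes in both genotypes. It had the largest standard error of the list, 0.240, around a log2 fold change of 0.15, while its relative Tfe3 was at -0.032 with a standard error of 0.0672.

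Genes around the core machinery were examined as 7 further lists, whose calls stand beside the 10.2% of all tested genes called in either direction. Of 13 other autophagosome formation genes 1 rose and 0 fell, and the one was Nrbf2, for a subunit of the ATG14 lipid kinase complex, at 0.48 (adjusted p by edgeR = 0.0467). Of 12 fusion partners 0 were called in edgeR, while Vamp8, Plekhm1 and Tbc1d5 had an unadjusted p below 0.05. Of 10 further selective receptors, Hdac6, for a deacetylase that carries aggregates, rose by 0.34 on the log2 scale (21.1 ± 1.40 CPM in Opa1cKO and 16.4 ± 1.27 CPM in WT; adjusted p = 0.0205). Of 12 mTORC1 and AMPK subunit genes, the AMPK gamma subunit gene Prkag2 rose by 0.51 (adjusted p = 0.00844). Nrbf2 kept its call in only 3 of the 12 fits that left out 1 library (without WT 3, Opa1cKO 3 or Opa1cKO 5), and Hdac6 lost it without WT 6, Opa1cKO 5 or Opa1cKO 6. Leaving out the 4 libraries of contradicted sex, Nrbf2 was 0.42 (adjusted p = 0.313), or 0.38 (adjusted p = 0.234) with no sex term, Hdac6 was 0.37 (adjusted p = 0.149), or 0.37 (adjusted p = 0.0707) with no sex term, and Prkag2 was 0.37 (adjusted p = 0.175), or 0.51 (adjusted p = 0.0425) with no sex term. The medians of these 4 lists lay between -0.10 and 0.011.

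Of 11 other transcriptional regulators tested, 1 rose and 2 fell. Foxo1 and Foxo3, forkhead factors known to induce autophagy genes in muscle, both fell without overlap between genotypes. Over all tested genes 3.64% were lower without overlap and 2.77% higher. Hdac6 and Prkag2, given above, were higher without overlap. Foxo1 averaged 69.3 ± 8.74 CPM in Opa1cKO and 103 ± 16.3 CPM in WT (log2 fold change -0.58; adjusted p by edgeR = 0.00615). Foxo3 averaged 117 ± 11.4 CPM in Opa1cKO and 154 ± 16.2 CPM in WT (log2 fold change -0.45; adjusted p = 0.00532). Fnip2, for a folliculin partner, rose by 0.47 (adjusted p = 0.0235), but not without WT 5, WT 6 or Opa1cKO 6. With those 4 libraries left out, Foxo1 was -0.42 (adjusted p = 0.173), or -0.50 (adjusted p = 0.0420) with no sex term, Foxo3 was -0.54 (adjusted p = 0.0833), or -0.40 (adjusted p = 0.0845) with no sex term, and Fnip2 was 0.50 (adjusted p = 0.200), or 0.50 (adjusted p = 0.0963) with no sex term.

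In the mitophagy list 3 of 10 fell and 0 rose, beside 5.13% lower and 5.10% higher over all tested genes; the lists are small, and no test compared them with each other or with all genes. Those that fell were the hypoxia-inducible receptor genes Bnip3 at -1.05 and Bnip3l at -0.83, and the kinase gene Pink1 at -0.48. Bnip3 and Bnip3l were called in all 32 alternatives. Pink1 was at -0.38 (adjusted p = 0.0707) with sex from the reads and lost its call without WT 5, WT 6, Opa1cKO 1, Opa1cKO 2 or Opa1cKO 6. Of 28 lysosomal genes tested only Ctsa, for a carboxypeptidase that protects lysosomal enzymes, was called, at -0.30 (adjusted p = 0.0260), and not without WT 5 or Opa1cKO 6. In the 8 libraries whose labelled sex was not contradicted, Bnip3 was -1.30 (adjusted p = 0.0120), or -1.19 (adjusted p = 0.00155) with no sex term, Bnip3l was -1.02 (adjusted p = 0.0181), or -1.01 (adjusted p = 0.00144) with no sex term, Pink1 was -0.53 (adjusted p = 0.194), or -0.51 (adjusted p = 0.0845) with no sex term, and Ctsa was -0.33 (adjusted p = 0.196), or -0.25 (adjusted p = 0.198) with no sex term. The median log2 fold changes were -0.17 for the mitophagy list and -0.0098 for the lysosomal list, beside -0.047 for the core machinery.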

How the data were processed

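Ribosome-depleted stranded total RNA libraries were made from 50 ng RNA with 14 PCR cycles, per the labels' protocols. Reads were aligned with STAR 2.7.11b to mm10, per the submitters' processing notes. Not given in the sources used here: how reads were assigned to genes, with which gene models, and whether by strand. The authors deposited whole-number counts per gene and TPM (transcript levels scaled by gene length and library size) for the 12 libraries. Counts were tested with edgeR 4.0.16 in R 4.3.3 (TMM factors, filterByExpr with minimum count 10, robust quasi-likelihood fit with terms for labelled sex and genotype) over all 15229 genes left, with Benjamini-Hochberg adjustment and a threshold of 0.05; a gene past it is called. CPM were computed with TMM factors, and TPM were used to compare levels between genes. The log2 fold change is that of Opa1cKO relative to WT, with 95% intervals from the fit's t quantiles. The fit was tested on simulated counts. Alternatives used DESeq2 1.42.0, limma 3.58.1, other scalings, filters and libraries. Library totals did not differ detectably (exact permutation test, two-sided, p = 0.502, n = 6 each). No libraries agreed within sampling noise, and 0 columns belonged to no sample.

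The 41 genes and all other lists were chosen with earlier results of these data known. All 41 are named; per-library values or ranges are given for called genes, genes without overlap, ATG8 genes and the smallest p in each role. The further values for Ulk1, Atg101, Calcoco1, Atg2a and Sqstm1 were chosen after their values were seen. Of other lists the called genes are named; their alternatives were added after their values were seen. Gene positions come from the GENCODE annotation of mm10. It gives 13 of the 41 genes an opposite-strand exonic overlap, and Atg9a, among these, also a same-strand one. Near-copies are matches of at least 94% identity over at least 250 bases. Other marker lists (annulus fibrosus, neutrophil, endothelial, skeletal muscle, erythroid, bone, keratinocyte) held 0 calls among 20 genes tested in edgeR, and 1 had an unadjusted p below 0.05.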

Additional observations from a re-analysis of the deposited data

Results flagged for a closer look

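In 5 of the 82 sets of 6 libraries (each of the 41 genes in each genotype), 1 library lay far from the other 5 by Dixon's test at the 95% level, which chance gives in about 1 of 20 sets. In Opa1cKO these were Ambra1 at 107 CPM in Opa1cKO 2, Wipi1 at 96.2 CPM in Opa1cKO 6 and Gabarap at 235 CPM in Opa1cKO 3, each the highest of its set. In WT these were Atg13 at 66.5 CPM in WT 5, the lowest of a set in which the other 5 libraries lay between 69.3 and 70.7 CPM, and Atg10 at 13.5 CPM in WT 1, the highest of its set. The Wipi1 value moves its fold change, as given with that gene, and the low WT 5 value lies on the Opa1cKO side of the other WT libraries for Atg13.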

How the results depend on the processing

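Over 32 alternatives, the 33 genes with an unadjusted p above 0.05, and also Wipi1 and Map1lc3a, were called in none, and no call reversed. Atg13 was called in 24 and Map1lc3b in 21. The median log2 fold change of the list stayed between -0.07 and -0.02.

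The count of lower calls, 2, became 4 with no sex term, 1 with sex from the reads, 5 with DESeq2, 4 with limma-voom quality weights, 0 at an adjusted p of 0.01 and 5 at 0.1. It was 0 in labelled females alone, 0 in labelled males alone, and 0 without the 4 libraries of contradicted sex, with or without a sex term (0 both times). Leaving out 1 library at a time gave 0 to 5. The added lower calls were Ulk1, Calcoco1 and Atg101. The count of higher calls, 0, became 1, for Optn, with DESeq2 and with the filter of 1 CPM in 6 libraries. It also became 1, again for Optn, with TPM without a filter and at an adjusted p of 0.1. Higher calls over all genes were 777 in the main fit, and 1189, 752, 421 and 1302 in these settings, in that order. Over all genes 10.2% were called, and between 1.9% (labelled females alone) and 16.2% (adjusted p of 0.1) under the alternatives. Lower calls over all genes were 781 in the main fit, 1037 with no sex term and 876 with sex from the reads. They were 1130 with DESeq2, 1074 with limma-voom quality weights, 326 at an adjusted p of 0.01 and 1171 at 0.1. Labelled females alone gave 133 and labelled males alone 258. Without the 4 contradicted libraries there were 137, or 380 with no sex term. Leaving out 1 library at a time gave 496 to 1008.

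Replicate numbers did not pair the libraries: correlations of same-numbered deviations ran from -0.22 to 0.043, and 0 libraries correlated best with their own number. With the replicate block 0 genes were called higher and 0 lower (adjusted p = 0.0819 for Atg13 and 0.0922 for Map1lc3b in edgeR). Subsets of libraries leave few mice, so a lost call there does not show that a gene did not differ. Without the 4 contradicted libraries 5 Opa1cKO and 3 WT mice remain, all 3 WT labelled female, so with a sex term the contrast rests on 2 Opa1cKO and 3 WT females.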

Other observations

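Several genes of the list were low in the same libraries. Opa1cKO 3 and Opa1cKO 6 were the 2 lowest Opa1cKO libraries for 7 of the 41 genes (Ulk1, Atg101, Atg9a, Atg2a, Atg4d, Map1lc3b and Calcoco1), more than for any other of the Opa1cKO pairs. In WT the pair WT 2 and WT 4 was lowest for 6 genes (Ulk1, Atg2a, Atg7, Atg4d, Calcoco1 and Tfeb), as was the pair WT 4 and WT 5 for 6 other genes. Ulk1, Atg2a, Atg4d and Calcoco1 are in both the first and the second set. Atg2a shows it most plainly, with 38.8 CPM in Opa1cKO 3, 52.3 CPM in Opa1cKO 6, 51.6 CPM in WT 2 and 63.9 CPM in WT 4. Opa1cKO 3, Opa1cKO 6, WT 2 and WT 4 were also the lowest of their genotype for some genes outside the list, such as Stk11, Vps18 and Akt1s1. For others, such as Rubcn, they were not. The pattern is therefore not particular to the autophagy genes, and its share over all tested genes was not counted. All of these genes and values were picked after they were seen and carry no test.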
